A study of Mus musculus with 35 samples.

Results

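Regions bound by the transcription factor KLF4 were compared between day 6 and day 9 of the reprogramming of mouse fibroblasts to pluripotent cells. The peak lists of 2 KLF4 libraries per day were merged on chromosomes 1 to 19 and X into 39319 regions. A region with a peak in both day 6 libraries and in neither day 9 library was called lost, and 1719 regions were (4.37% of all merged regions). A region with a peak in both day 9 libraries and in neither day 6 library was called gained, and 2983 regions were (7.59%). Regions with a peak in all 4 libraries were called common and numbered 11759 (29.9%). These sizes follow from the rule and carry no test. The other 22858 regions (58.1%) fell in no class, and 13687 of them had a peak in 1 library only.

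The fibroblasts (MEF) were of strain C57BL/6 x 129 and carried a polycistronic OKSM cassette, which codes for Oct4, Klf4, Sox2 and Myc, in the Col1a1 locus, with the doxycycline-responsive activator M2rtTA in the Rosa26 locus. Cells of days 3, 6 and 9 had been kept in ESC medium that held ascorbic acid (50 µg/ml) and doxycycline (1 µg/ml). The KLF4 that was mapped can therefore include protein made from the transgene at all 3 days, which was not measured here. Day 3 cells were unsorted, and day 6 and day 9 cells had been sorted for the surface marker SSEA1. The reference was V6.5, an embryonic stem cell (ESC) line grown on feeder cells in serum and LIF, for KLF4 also with 2i, inhibitors of MEK (1 µM) and GSK3 (3 µM). KLF4 ChIP-seq gave 2 libraries for each of these 3 days, for serum ESC and for 2i. ChIP-seq of H3K27ac, the acetylated histone H3 found at active promoters and enhancers, gave 12 libraries, with 3 each for days 3 and 6 and 2 each for MEF, day 9 and ESC. In bulk populations, fewer cells with a bound site and less binding per cell cannot be told apart. The files hold peaks and no read counts, so the depth is unknown, and weak signal can lie below a list's limit. No expression data were used, so the cell types were not checked against their markers. The labels do not say whether libraries of a group came from separate cultures, so p-values measure the spread between these libraries.

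KLF4 is a zinc finger factor that binds GC-rich and CACCC-type sequences at promoters and enhancers. It is one of the inducible reprogramming factors, and it is also known as an activator of epithelial genes such as the cadherin gene Cdh1 and as part of the ESC network around Oct4, Sox2 and Esrrb. Fibroblasts on their way to pluripotency are known to shut down mesenchymal genes, take on epithelial features and later switch on the endogenous pluripotency genes.

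The promoters of 4 genes show what KLF4-bound starts looked like in the classes, with the letters of a KLF motif, GGGNGTG, in capitals; on the opposite strand it reads CACNCCC. Each is a stretch of 120 bases before the start of transcription from RefSeq (GRCm38.p6), written along the strand of the gene, and each lies at least in part in the KLF4 region of its class. Klf17, a member of the KLF family, had a gained region over its start (region chr4:117765322-117765866, stretch chr4:117765667-117765786, minus strand). Slc44a3, a gene of the choline transporter-like family, had the strongest gained region among promoters that hold the motif (region chr3:121532139-121532644, stretch chr3:121532345-121532464, minus strand). E2f2, a cell-cycle transcription factor gene, had the strongest such lost region (region chr4:136180526-136180836, stretch chr4:136180574-136180693, plus strand), and Arhgap28, a GTPase activator gene, the strongest such common region (region chr17:68003565-68004654, stretch chr17:68004123-68004242, minus strand). E2f2 and Slc44a3 lie outside the rule for named genes and were chosen by this rank after their values were seen.
Klf17: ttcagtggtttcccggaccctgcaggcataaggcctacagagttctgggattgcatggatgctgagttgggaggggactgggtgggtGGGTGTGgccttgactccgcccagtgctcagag
Slc44a3: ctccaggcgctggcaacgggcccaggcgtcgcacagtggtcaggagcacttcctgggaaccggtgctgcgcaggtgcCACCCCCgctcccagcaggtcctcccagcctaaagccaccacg
E2f2: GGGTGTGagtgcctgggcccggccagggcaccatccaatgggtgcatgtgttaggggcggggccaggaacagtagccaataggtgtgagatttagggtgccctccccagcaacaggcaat
Arhgap28: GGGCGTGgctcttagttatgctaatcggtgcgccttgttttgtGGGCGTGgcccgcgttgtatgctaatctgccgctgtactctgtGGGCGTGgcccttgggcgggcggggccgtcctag
At Klf17 the deposited fold enrichment of the peak was 5.38 and 6.05 in the 2 day 9 libraries. At Slc44a3 it was 5.69 and 9.77 at day 9, at E2f2 7.99 and 4.13 at day 6, and at Arhgap28 48.6 and 51.3 at day 6 and 28.6 and 29.4 at day 9. Folds are the authors' values for a peak against its own background and describe a peak within its list.

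Libraries that stand apart bear on what follows. Day 6 had 1 library in batch EC-EA-3702 and 1 in batch EC-DG-4040, whereas both day 9 libraries came from batch EC-EA-3702. The lists were of like length, with 22525 and 23954 peaks at day 6 and 24004 and 26003 at day 9. The Jaccard index, the length covered by both lists over the length covered by either, was 0.423 for the day 6 pair, 0.577 for the day 9 pair and 0.409 to 0.444 for the 4 pairs of a day 6 with a day 9 library. The index of the day 6 pair thus lay within the range of the pairs across days. The day 6 library of batch EC-EA-3702 had 47.6% of its peaks within 2.5 kb of the start of a protein-coding gene, against 30.6% in the other day 6 library and 33.1% and 33.4% in the day 9 libraries. Among H3K27ac lists, the number of peaks ran from 17493 at day 6 to 88347 in MEF.

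**Figure D1:**
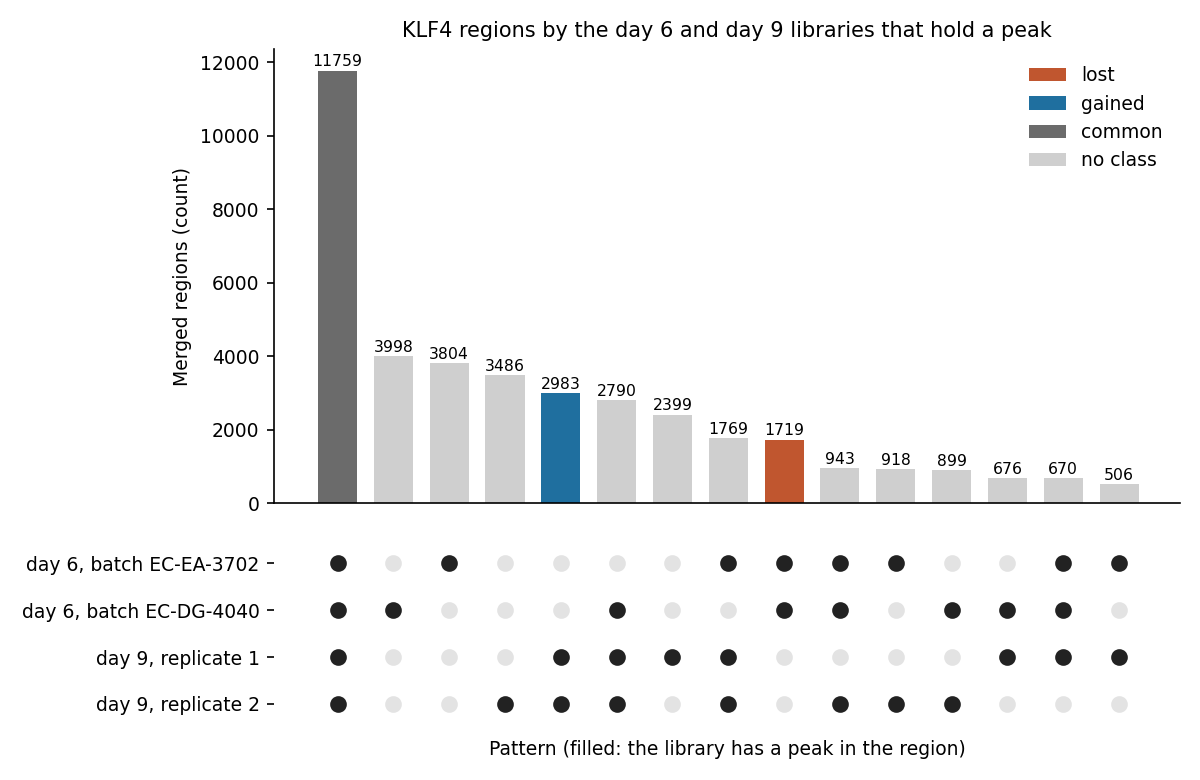
Bars count the merged KLF4 regions by the libraries that hold a peak, with the pattern shown by filled circles below each bar. The 11759 common regions form the highest bar, and regions found in a single library (2399 to 3998 per library) outnumber the 1719 lost regions in each case.

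Most regions that both day 6 libraries shared were still bound at day 9. Of 15091 regions in both day 6 libraries, 77.9% were common and 11.4% lost. Of 19301 regions in both day 9 libraries, 60.9% were common and 15.5% gained. Gained regions made up 63.4% of gained plus lost regions. Leaving out a library also lets 1 peak stand for its day, which by itself enlarges the class of that day, here and in the other values given without a library. The share was 45.2% without the day 6 library of batch EC-EA-3702, where 5816 regions were lost and 4793 gained. It was 50.9% without the other day 6 library, where all libraries are of 1 batch and 5588 regions were lost and 5787 gained. Without 1 or the other day 9 library it was 73.1% and 67.0%.

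Lost and gained regions had lower folds than common ones. The folds and q-values come from the same 4 lists that define the classes, and a common region needs a peak in all 4. This gap is therefore a description and no independent result, and the part of the rule in it was not tested. The median deposited fold of lost regions was 3.89 and 3.41 in the day 6 libraries, and that of gained regions 3.83 and 4.12 in the day 9 libraries. Common regions had medians of 6.30 and 4.97 at day 6 and 5.60 and 6.12 at day 9. The median width was 319 bp for lost, 327 bp for gained and 528 bp for common regions, which are unions over 4 lists and not 2 and so are wider in part by construction. A deposited −log10 q of at least 2 was reached by 53.6% and 58.7% of the lost regions in the day 6 libraries, by 51.7% and 59.8% of the gained regions in the day 9 libraries, and by 85.4% to 90.2% of the common regions. Just outside the gained class lay 4559 regions with peaks in both day 9 libraries and in 1 day 6 library, with median day 9 folds of 4.12 and 4.52. Just outside the lost class lay 1613 regions with peaks in both day 6 libraries and 1 day 9 library, with median day 6 folds of 4.43 and 3.61.

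KLF4 lists of day 3 and ESC, which the classes did not use, showed where lost and gained regions had been bound before and were bound in pluripotent cells. Most lost regions had a KLF4 peak at day 3: 79.9% in the library of batch EC-EA-3702 and 65.7% in that of batch EC-DG-4040. Of the gained regions, 18.7% and 11.5% did, and of the common regions 88.2% and 79.2%. In both day 3 libraries the percentage of lost regions lay between those of the gained and the common ones. Both day 3 libraries had a peak in 1027 lost regions (59.7%, against 39.2% of all merged regions) and in 203 gained regions (6.81%). Neither day 3 library had one in 2286 gained regions (76.6%, against 37% of all merged regions).

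In ESC the percentages of lost and gained regions were closer to each other. In serum ESC, 25.5% and 44.3% of the lost regions had a KLF4 peak and 19.8% and 33.6% of the gained regions. In 2i, the values were 32.3% and 30.9% for lost and 18.3% and 23.3% for gained regions. Common regions were bound in 61.6% and 77.9% of cases in serum ESC and in 58.0% and 58.2% in 2i. Of all merged regions, 33.1% and 49.3% had a peak in serum ESC and 35.0% and 35.6% in 2i, so lost and gained regions were both below that share in each library. Over 2.5 kb from gene starts, 25.7% ± 9.75 of lost and 25.8% ± 9.35 of gained regions (SD, n = 2) had a peak in serum ESC. Taken within each library, the gained minus lost difference was 0.09 ± 0.40 percentage points, a mean below its spread. The means moved apart with a KLF4 library left out. Lost and gained regions stood at 19.1% and 29.2% without the day 6 library of batch EC-EA-3702 and at 23.1% and 31.3% without the other. Without 1 or the other day 9 library they stood at 28.0% and 20.6% and at 28.9% and 21.2%. The ranges over the 2 serum ESC libraries overlapped, but both classes were read in the same libraries, so this overlap does not measure the gap. The lowest and the highest library value were both higher for gained than for lost regions without 1 or the other day 6 library. Both were lower for gained regions without 1 or the other day 9 library.

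The log2 ratio of the gained to the lost percentage was −2.10 and −2.52 in the day 3 libraries, −0.36 and −0.40 in serum ESC and −0.82 and −0.41 in 2i. All 4 ESC libraries lay above both day 3 libraries. The mean of ESC and 2i exceeded that of day 3 by 1.81 (two-sided exact permutation test, p = 0.0667, the smallest p that 15 labelings allow, adjusted p = 0.233 over 7 tests, Benjamini-Hochberg). Within batch EC-EA-3702 the difference between 2i and day 3 was 1.28, with 1 library each. Without the day 6 library of batch EC-DG-4040 the difference was 0.75 (exact permutation test, p = 0.133), and the other left-out libraries gave 1.42 to 2.02. The order at day 3 was the same without either day 6 library, though the gap was smaller: a mean of 47.8% of lost and 30.1% of gained regions without that of batch EC-EA-3702, and 51.0% and 27.8% without that of batch EC-DG-4040. Common regions stood at 75.5% and 79.9% in these settings, so the lost regions were then nearer to the gained than to the common ones. In serum ESC the order turned, with 23.4% of lost and 37.9% of gained regions without the former and 28.7% and 32.1% without the latter. Without 1 or the other day 9 library it did not turn, with 37.7% of lost and 21.7% of gained regions and with 39.8% and 22.4%. In 2i it turned without the day 6 library of batch EC-EA-3702, with 20.5% of lost and 34.6% of gained regions, and did not without that of batch EC-DG-4040, with 29.2% and 22.2%.

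**Figure D2:**
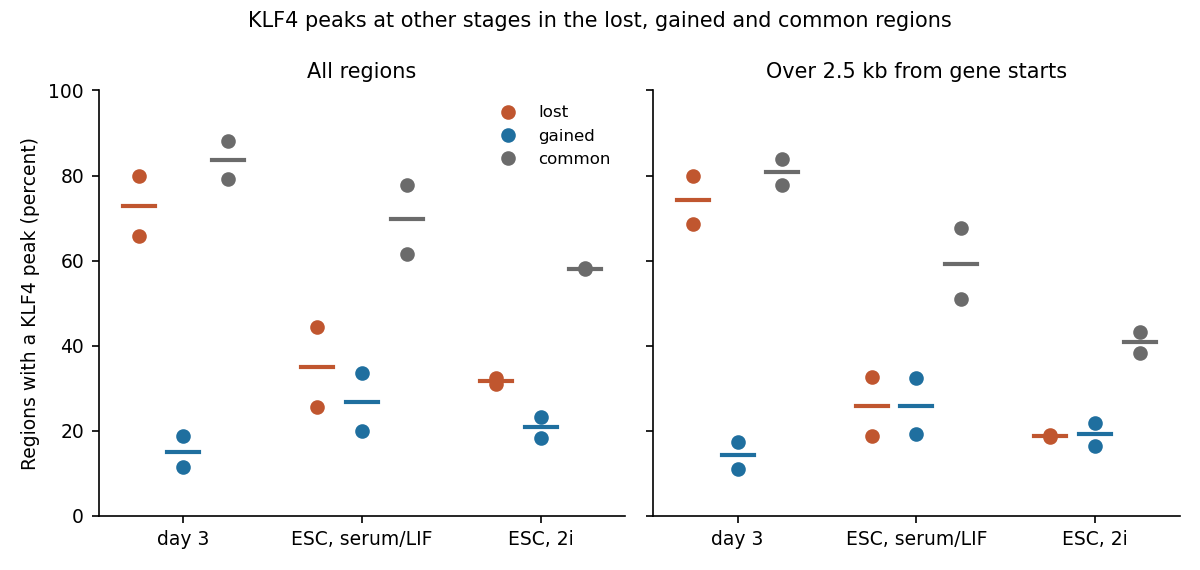
Percent of lost, gained and common regions with a KLF4 peak at day 3, in serum ESC and in 2i, for all regions and for those over 2.5 kb from gene starts; each point is a library and each line the mean of 2. At day 3 the lost regions (79.9% and 65.7%) lie above the gained ones (18.7% and 11.5%) with all 4 libraries used, and away from gene starts lost and gained regions overlap in ESC with all 4 libraries used.

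The 2 readouts in combination sorted the members further. Of the gained regions, 1337 (44.8%) had no KLF4 peak in any day 3, serum ESC or 2i library, against 21.1% of all merged regions, and 416 (13.9%) had none at day 3 and one in both serum ESC libraries, against 6.13%. Of the lost regions, 564 (32.8%) had a peak in both day 3 and neither serum ESC library, against 12.9% of all merged regions. A further 253 lost regions (14.7%) had a peak in both day 3 and both serum ESC libraries, where the share of all merged regions was 18.7%.

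Acetylation at the gained regions was sparse until day 6 and more frequent at day 9, where it stayed below the share of all merged regions. Of the gained regions, 13.1% ± 0.0948 had an H3K27ac peak in MEF (SD over 2 libraries). The 3 libraries of day 3 gave 10.0% ± 2.79 and the 3 of day 6 gave 5.53% ± 3.01. The value was 53.9% ± 1.40 for day 9 and 28.9% ± 1.73 for ESC, with 2 libraries each. The lost regions started higher, with 47.9% ± 0.123 in MEF, and passed through 44.6% ± 6.15 for day 3 and 27.3% ± 7.10 for day 6 to 59.2% ± 2.14 for day 9 and 40.1% ± 0.740 for ESC, over the same libraries. Loss of the KLF4 peak therefore did not come with fewer H3K27ac peaks at day 9 than at day 6: each day 9 library (57.7% and 60.7%) was above each day 6 library (21.8% to 35.3%). Of all merged regions, a mean of 38.6% were acetylated in MEF, 37.9% on day 3 and 46.7% in ESC, so that in ESC lost and gained regions were both below that share. The order of days 6 and 9 was the same for all merged regions, of which 29.3% ± 5.92 were acetylated on day 6 and 64.8% ± 0.595 on day 9, beside day 6 lists of 17493 to 22462 peaks and day 9 lists of 43974 and 45506. On day 9, too, lost and gained regions were both below the share of all merged regions, and common regions stood at 88.5%. The part of list length in these shares was not tested, and the ratio of 2 classes within a library was used for the tests.

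The log2 ratio of gained to lost percentages had a mean and SD of −1.87 ± 0.00669 for MEF, −2.18 ± 0.207 for day 3, −2.40 ± 0.371 for day 6, −0.13 ± 0.0896 for day 9 and −0.48 ± 0.113 for ESC. Every library of MEF, day 3 and day 6 lay below every library of day 9 and ESC. The slope over the order MEF, day 3, day 6, day 9, ESC was 0.49 per stage (two-sided exact permutation test with 1663200 labelings). Its p was 0.0133 by this exact test and 0.0928 after Benjamini-Hochberg adjustment over the 7 tests, which does not pass 0.05. Day 9 exceeded day 6 by 2.27 (exact permutation test, p = 0.1, the smallest p that 3 against 2 libraries allow, adjusted p = 0.233). Within batch EC-EA-3702, with 1 day 6 and 2 day 9 libraries, the difference was 1.84.

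This contrast depends on 1 KLF4 library. Without the day 6 library of batch EC-EA-3702, H3K27ac peaks were more frequent in gained than in lost regions at every stage: 35.8% against 29.1% in MEF, 24.5% against 14.0% at day 6 and 65.5% against 41.9% at day 9. The day 9 minus day 6 difference then turned to −0.19 (exact permutation test, p = 0.3), and the slope was 0.14 (exact permutation test, p = 0.0124). In that setting gained regions were also the ones more often near a gene start. Over 2.5 kb from gene starts the order at day 9 also depended on the libraries: 54.2% of gained and 34.7% of lost regions had an H3K27ac peak at day 9 without the day 6 library of batch EC-EA-3702, and 58.8% and 43.9% without that of batch EC-DG-4040. It was the opposite without 1 or the other day 9 library, with 39.3% of gained and 52.0% of lost regions in the first case and 41.6% and 53.0% in the second. At day 6 the same distal values were 6.25% and 6.82% without the day 6 library of batch EC-EA-3702 and 4.49% and 14.5% without that of batch EC-DG-4040. With all 4 libraries, distal gained and lost regions stood at 51.9% ± 1.65 and 48.9% ± 2.91 on day 9 (SD, n = 2). Taken within each H3K27ac library, the gained minus lost difference was 3.04 ± 4.55 percentage points, a mean below its spread.

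**Figure D3:**
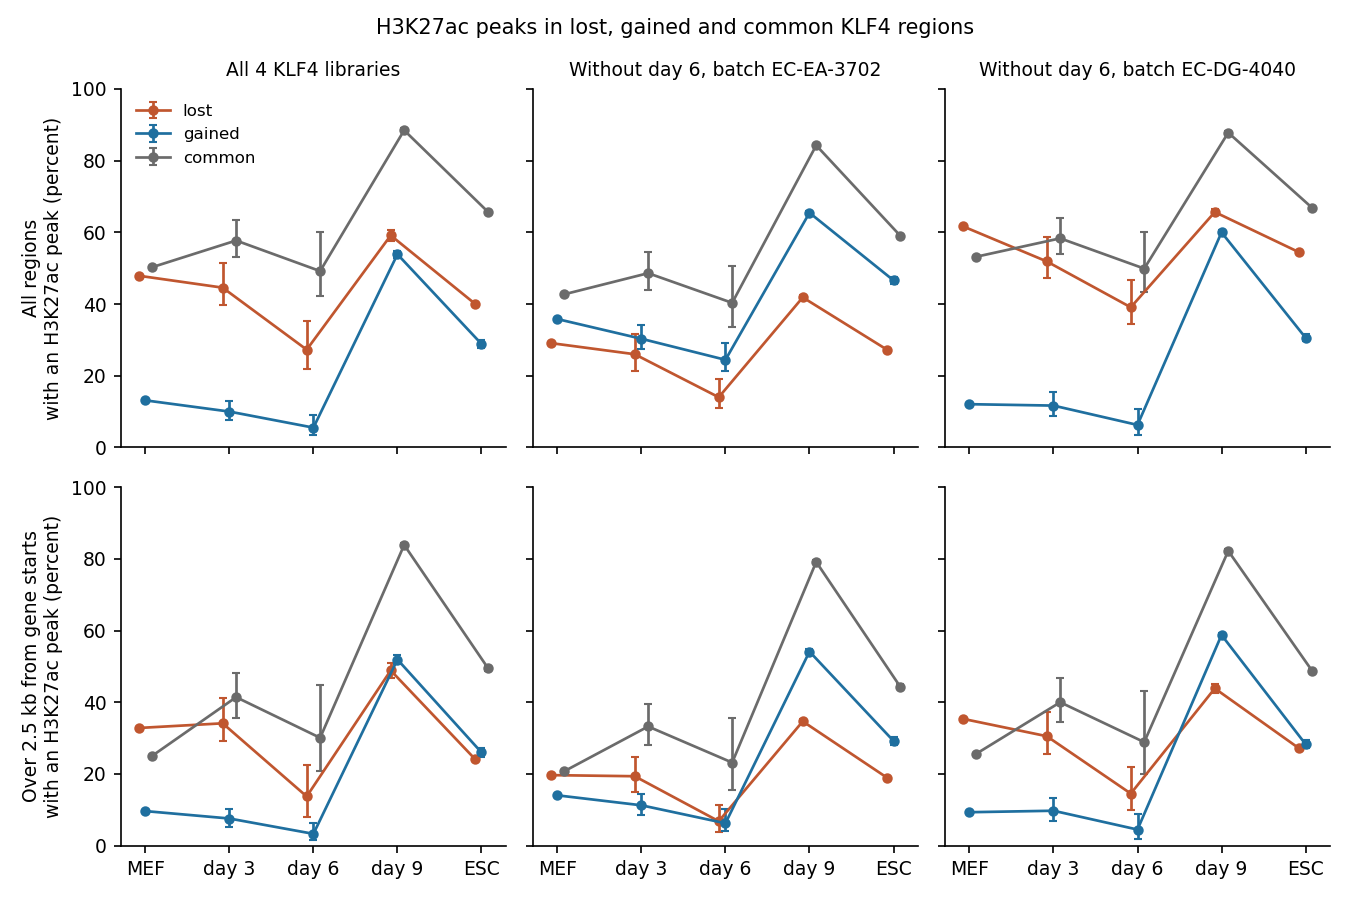
Mean percent of lost, gained and common KLF4 regions with an H3K27ac peak from MEF to ESC (2 or 3 H3K27ac libraries per stage; bars span the lowest to the highest library), with all 4 KLF4 libraries and without each day 6 library, for all regions (top) and those over 2.5 kb from gene starts (bottom). Gained regions stand at 5.53% at day 6 and 53.9% at day 9 with all 4 libraries, and the order of lost and gained regions turns in the top middle panel.

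Subsets of the members differed in ESC. The 416 gained regions with KLF4 in both serum ESC libraries and no day 3 library had H3K27ac peaks in 2.72% ± 2.85 on day 6, 47.1% ± 0.680 on day 9 and 62.6% ± 2.55 in ESC. The 1337 gained regions with KLF4 at day 9 alone had 2.54% ± 1.82 on day 6, 51.7% ± 2.17 on day 9 and 9.91% ± 1.64 in ESC. Both subsets were thus near each other on days 6 and 9 and far apart in ESC. They were split by KLF4 peaks in ESC, as were the lost subsets that follow. How far the gaps in ESC follow from this split was not tested. The 564 lost regions with KLF4 in both day 3 and neither serum ESC library had 39.8% ± 0.125 in MEF, 52.8% ± 3.51 on day 9 and 14.5% ± 0.627 in ESC. The 253 lost regions with KLF4 in both day 3 and both serum ESC libraries had 69.0% ± 0.279 in MEF, 74.7% ± 2.80 on day 9 and 74.7% ± 3.91 in ESC, and 50.2% of them lay near a gene start, against 12.6% of the 564. An H3K27ac peak in both day 9 and no day 6 library was found at 1103 gained (37.0%), 300 lost (17.5%) and 2771 common regions (23.6%), against 22.6% of all merged regions.

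H3K27ac in both day 9 libraries and in no MEF or ESC library was found at 654 gained regions (21.9%), 183 lost regions (10.6%) and 1907 common regions (16.2%), against 13.6% of all merged regions. No H3K27ac peak in any of the 12 libraries was found at 848 gained (28.4%), 330 lost (19.2%) and 608 common regions (5.17%), against 21.4% of all merged regions.

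Gained regions lay mostly away from gene starts. Within 2.5 kb of a start lay 12.2% of gained, 32.1% of lost and 41.4% of common regions, against 32.4% of all merged regions. The order of gained and lost turned without the day 6 library of batch EC-EA-3702, with 33.7% and 20.3%, and was 10.8% and 51.0% without the other day 6 library. The median distance to the nearest tabulated start, chromosome 18 left out for want of starts, was 34.2 kb for gained, 21.3 kb for lost and 14.3 kb for common regions. Per library, the share of all peaks near a start differed by −5.88 percentage points between day 9 and day 6 (exact permutation test, p = 1, where 2 against 2 libraries allow no p below 0.333), and it was 2.59 without the day 6 library of batch EC-EA-3702.

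The 8 strongest gained regions at genes were led by Esrp2, which codes for an epithelial splicing regulator. Its region had folds of 9.71 and 11.3 in the day 9 libraries (chr8:106134774-106135571, overlapping the gene) and H3K27ac peaks in both day 9 libraries and in no other. Regions in Nfib, a nuclear factor I gene (11.7 and 11.1), and Nebl, which codes for an actin-binding protein (11.5 and 9.93), followed with Nsl1, a kinetochore gene, within 10 kb of its region (10.4 and 9.79). Fndc3b, Oprd1, the delta opioid receptor gene, Metrnl and Ptprk, a receptor tyrosine phosphatase gene, completed the set, with folds of 7.66 to 10.7. H3K27ac was present in both day 9 libraries at 7 of the 8 regions, in no day 6 library at all 8 and in no ESC library at 7. No day 3 library had a KLF4 peak at 7 of them, and serum ESC had one in both libraries at 1. Over all gained regions, 46.8% had H3K27ac in both day 9 libraries, with a mean of 5.53% at day 6 and 28.9% in ESC. KLF4 was in neither day 3 library at 76.6% and in both serum ESC libraries at 17.9%, so the KLF4 counts are near the class shares. The day 6 and ESC acetylation counts are also near theirs, though those shares are means per library.

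The 8 strongest lost regions had been bound at day 3 without exception. Ankrd55 led with folds of 13.3 and 6.02 at day 6 and of 15.2 and 5.59 at day 3 (chr13:112311124-112311613, overlapping the gene). Sbk1, a kinase gene, had 7.59 and 6.60 at day 6, App, the amyloid precursor gene, 8.82 and 6.49, and Rab30, a small GTPase gene, 11.4 and 5.82. Birc6, an inhibitor of apoptosis, Bcr, Hs3st3a1, a heparan sulfate sulfotransferase gene, and Plekho2 followed with 5.93 to 9.13. Of the 8 regions, 7 had H3K27ac peaks in both MEF libraries, 5 had none at day 6, 5 had them in both day 9 libraries and 7 had none in ESC. Of all lost regions, 45.2% had H3K27ac in both MEF and 54.2% in both day 9 libraries. A mean of 27.3% of all lost regions had H3K27ac at day 6 and 40.1% in ESC. Serum ESC had a KLF4 peak in both libraries at 2 of the 8 regions and in neither at 6. Over all lost regions, these shares were 23.3% and 53.5%, and 59.7% had a KLF4 peak in both day 3 libraries.

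The 8 strongest common regions were bound in every KLF4 library of the series and acetylated in both day 9 and both ESC libraries. They lay at Flrt1, Arhgap28, Klf3, Map4k4, Esrra, an orphan nuclear receptor gene, Rif1, a replication timing factor gene, Sh3bp4 and Akap12. Of all common regions, 85.9% had H3K27ac in both day 9 and 62.4% in both ESC libraries. KLF4 was in both day 3 libraries at 75.2% of them, in both serum ESC libraries at 60.03% and in both 2i libraries at 49.3%. The day 9 acetylation count is thus near the class share. At Klf3, a KLF family repressor gene, the fold was 37.9 and 33.1 at day 6, 23.8 and 27.9 at day 9, 16.8 and 7.01 in serum ESC and 43.7 and 15.1 in 2i.

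Gene lists were read against all 21631 protein-coding genes, of which 7.64% had a lost, 9.59% a gained and 38.9% a common region in the gene body or within 10 kb. The lists hold 230 genes with long and well-studied loci among them, and gene length was not matched. Over all lists, 33 genes had a lost (14.3%), 40 a gained (17.4%) and 133 a common region (57.8%), so the listed genes as a whole stood above the background in all classes. The counts below are descriptions with no test.

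Pluripotency genes had gained and no lost regions. Of 30 genes, 9 had a gained region (30%), 0 a lost and 18 a common one (60%). Sall4, a zinc finger gene of the ESC network, had a region with folds of 4.85 and 7.64 at day 9 and of 6.11 and 2.40 in serum ESC. Tdgf1, the NODAL co-receptor gene, had folds of 6.01 and 5.30 at day 9 and of 7.75 and 7.38 in serum ESC, 0.918 kb from its start. Nr5a2, a nuclear receptor gene, had 5.64 and 4.00 at day 9 and 3.88 and 4.20 in serum ESC. The region at Tet2, a 5-methylcytosine dioxygenase gene, had 5.25 and 4.45 at day 9 and 2.43 and 1.93 at day 3, with no peak in ESC. Utf1, a chromatin factor gene of undifferentiated cells, had 4.12 and 3.79 at day 9. The region over the start of Sox2 had 2.77 and 4.47 at day 9, but also 3.98 and 2.13 at day 3, so this site was listed at day 3, in neither day 6 library, and again at day 9.

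Of these 9 regions (the best-ranked of each gene), 0 had an H3K27ac peak in a MEF library, 8 had one in both ESC libraries and 4 in both day 9 libraries. Of all gained regions, a mean of 13.1% had one in MEF, 25.2% had one in both ESC and 46.8% in both day 9 libraries. The MEF and day 9 counts are thus near the class shares. KLF4 was found in both serum ESC libraries at 6 and in both 2i libraries at 6. Over all gained regions, the shares were 17.9% and 13.9%. With 1 library left out, 12 or 13 pluripotency genes had a gained and 2 to 5 a lost region, beside 16.2% to 18.6% of all genes with a gained and 10.2% to 24.5% with a lost one.

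Epithelial genes had the highest share of gained regions of the 10 lists, with 12 of 30 (40%), besides 6 with a lost (20%) and 22 with a common region (73.3%). After Esrp2, Grhl3, a grainyhead factor gene of epithelia, had a region with folds of 7.03 and 7.12 at day 9, and a lost region elsewhere in its window with 5.71 and 3.35 at day 6. Krt8, a keratin gene of simple epithelia, had 4.67 and 5.53, Cdh1 5.42 and 5.07, Ocln, a tight junction gene, 4.59 and 6.36, and Dsp, the desmoplakin gene, 4.68 and 6.12. Both day 9 H3K27ac libraries had a peak at 9 of the 12 regions, both ESC libraries at 4, and no MEF library at 10. No day 3 KLF4 library had a peak at 11 of the 12, and both serum ESC libraries had one at 1. Over all gained regions, H3K27ac was in both day 9 libraries at 46.8%, in both ESC libraries at 25.2% and in MEF at a mean of 13.1%. KLF4 was in neither day 3 library at 76.6% and in both serum ESC libraries at 17.9%. The ESC and MEF acetylation counts and the KLF4 counts of the list are near these shares.

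The lost regions of this list included those at Tjp1, a tight junction scaffold gene, at Grhl3, Crb3, a polarity gene, Marveld3 and Cldn4. At Tjp1 the folds were 6.22 and 3.21 at day 6 and 20.0 and 9.58 at day 3. With 1 library left out, 14 to 18 epithelial genes had a gained and 7 to 10 a lost region. Of all genes, 16.2% to 18.6% had a gained and 10.2% to 24.5% a lost one in these settings.

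Fibroblast and mesenchymal genes showed the opposite balance, with a lost region at 7 of 30 (23.3%), a gained one at 1 (3.33%) and a common one at 14 (46.7%). Runx2, a mesenchymal transcription factor gene, had folds of 5.23 and 6.22 at day 6 and of 7.56 and 8.06 at day 3. S100a4, the fibroblast-specific protein gene, had 4.16 and 4.37 at day 6, and Col6a2, a collagen VI gene, 3.76 and 4.43. Col5a1 (4.69 and 3.15), Col1a2, a collagen I gene (3.16 and 3.70), and Runx1, a paralog of Runx2, also had one. All 7 regions had a KLF4 peak in both day 3 libraries, and 5 had none in serum ESC. Over all lost regions, 59.7% had a KLF4 peak in both day 3 libraries and 53.5% in neither serum ESC library. A mean of 27.3% of all lost regions had H3K27ac at day 6. H3K27ac was found in both MEF libraries at 4 of the 7 regions, in no day 6 library at 6, in both day 9 libraries at 4 and in both ESC libraries at 0. The MEF and day 9 counts are near the shares over all lost regions, and the ESC count is set beside 36.7% of them. Snai1, which codes for a repressor of Cdh1, had the single gained region, with folds of 3.20 and 4.94 at day 9. With 1 library left out, 7 to 13 genes of the list had a lost and 2 to 5 a gained region. Of all genes, 10.2% to 24.5% had a lost and 16.2% to 18.6% a gained one in these settings. The count of 13 was found without the day 6 library of batch EC-DG-4040, where the share of all genes was 24.5%.

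In the KLF and SP family, 7 of 26 genes had a gained (26.9%), 3 a lost (11.5%) and 18 a common region (69.2%). With 1 library left out, 9 to 11 had a gained and 3 to 9 a lost region. Of all genes, 16.2% to 18.6% had a gained and 10.2% to 24.5% a lost one in these settings. With windows of 2.5 kb, 4 had a gained and 1 a lost region, beside 7.15% and 5.82% of all genes. Klf1, an erythroid factor gene, led the gained regions with folds of 6.70 and 6.72, then Klf17, Klf13 (5.82 and 4.75), Klf9 (4.82 and 5.30), Klf4 itself (5.81 and 4.45) and Klf3 (4.29 and 3.92). The region 8.42 kb from the start of Klf4 had no KLF4 peak in any day 3, ESC or 2i library and no H3K27ac peak in any of the 12 libraries. Lost regions lay at Sp7, an osteoblast factor gene (7.64 and 3.61 at day 6), Klf9 (10.4 and 3.21) and Klf6 (3.06 and 2.56). Klf9 therefore had a lost region 5.66 kb and a gained one 35.6 kb from its start.

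AP-1 and TGF-beta genes had 5 of 25 genes with a lost and 5 with a gained region (20% each) and 18 with a common one (72%). With 1 library left out, 5 to 12 genes of this list had a lost and 6 to 7 a gained region. Without 1 or the other day 6 library, 12 had a lost and 7 a gained region. The shares of all genes in these settings are given below for the LIF list. Junb, an AP-1 subunit gene, had a lost region (4.47 and 3.74 at day 6) and a gained region (4.35 and 6.29 at day 9), and Smad7, an inhibitor of TGF-beta signalling, had both as well. Atf3, Mafk and Tgfb1, the ligand gene, had a lost region only, and Fos, Smad3 and Tead1 a gained one only. Of the LIF, BMP, WNT and FGF genes, 5 of 27 had a lost (18.5%), 3 a gained (11.1%) and 19 a common region (70.4%). With 1 library left out, 6 to 17 had a lost and 5 to 11 a gained region. The order turned without day 9 replicate 1, with 6 lost and 11 gained. Of all genes, 10.2% to 24.5% had a lost and 16.2% to 18.6% a gained one in these settings. Stat3, the transducer of LIF signalling, had a lost region with folds of 7.51 and 4.21 at day 6 and of 8.49 and 4.26 at day 3. Id1, a BMP target gene, had 4.68 and 2.59, and Jak1 3.56 and 3.01. Gained regions lay at Tcf7l1, which also had a lost one, at Smad1 and at Lefty2.

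Among 18 genes of DNA methylation and Polycomb, Tet3 and Kdm2b had a lost and Jarid2 and Ezh2 a gained region (11.1% each). Formative and primed epiblast genes had 0 of 15 in either class and 4 with a common region (26.7%). With 1 library left out, 1 to 5 of them had a gained and 0 to 4 a lost region. Of all genes, 16.2% to 18.6% had a gained and 10.2% to 24.5% a lost one in these settings. Of 17 extraembryonic genes, 3 had a lost region (17.6%), namely Dab2, Tfap2a and Cdx2, and 1, Elf5, a gained one (5.88%). Of 14 genes of immune and endothelial cells, a check for other cell types, Tek and Tie1 had a lost region (14.3%) and 0 a gained one.

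**Figure D4:**
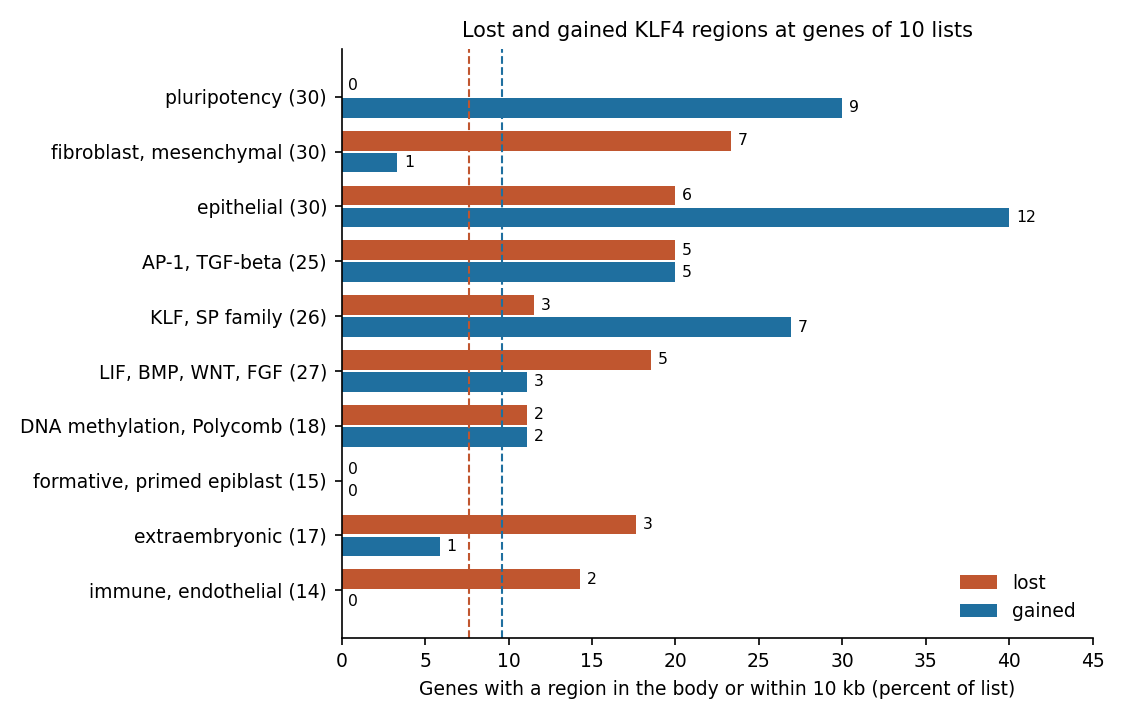
Percent of the genes of 10 lists with a lost or a gained KLF4 region in the gene body or within 10 kb, with the number of genes at each bar, list sizes in parentheses and dashed lines at the percent of all 21631 protein-coding genes (7.64% lost, 9.59% gained). Pluripotency genes (0 lost, 9 gained) and fibroblast genes (7 lost, 1 gained) lie on opposite sides.

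Several genes held more than 1 region of a class, and the genes with the most are named here, ties being broken by the number per kb. Plekhm1, an adaptor gene of lysosome fusion, Myh14, a non-muscle myosin gene, Lypd6b, Dip2b and Sntb1, a syntrophin gene, had 4 gained regions each and 0 lost ones, and Ptprg, Arhgap26 and Ptprn2, which are longer genes, also had 4 gained ones. Rgl1, which codes for an exchange factor of the Ras pathway, had 4 lost regions and 0 gained ones. Efna4, an ephrin gene, Sema4c, a semaphorin gene, and Litaf had 3 lost regions each, with 1 gained region at Efna4. At least 3 gained regions were found at 0.171% and at least 3 lost regions at 0.0971% of protein-coding genes, and 288 genes (1.33%) had both a gained and a lost region. Dip2b also had 4 common regions and Sema4c 0.

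The KLF motif of the sequences shown above was most frequent in promoters under common regions. The letters GGGNGTG on either strand were found in 31.5% of 21045 promoters of 300 bases, in 49.0% of 3895 that overlap a common region, in 35.1% of 276 that overlap a lost region and in 33.0% of 103 that overlap a gained one. Promoters with no region of the 4 libraries had them in 24.7%. The median GC content was 65.7% under common, 62.7% under lost and 59.3% under gained regions, against 56.7% in all promoters, and the part of GC content in the motif shares was not tested. The octamer letters ATTTGCAT, to which POU factors such as Oct4 bind, were found in 6 of the 103 gained (5.83%), 3 of the 276 lost (1.09%), 2.29% of the common and 1.68% of all promoters. The AP-1 letters TGANTCA were found in 10.7% under gained, 4.71% under lost and 3.98% under common regions, against 7.04% of all promoters and 9.34% of those with no region. A match is a description of letters, and no genome sequence was used for the regions away from promoters.

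Over whole lists, the day 9 libraries had more of their peaks at ESC-specific and fewer at MEF-specific acetylated regions than the day 6 libraries. Regions with H3K27ac in both ESC and no MEF library took 12.4% and 15.4% of the day 6 peaks and 16.8% and 16.3% of the day 9 peaks, a difference of 2.70 percentage points (exact permutation test, p = 0.333, adjusted p = 0.467). Regions with H3K27ac in both MEF and no ESC library took 6.14% and 5.77% at day 6 and 4.61% and 4.57% at day 9, a difference of −1.37 percentage points (exact permutation test, p = 0.333, adjusted p = 0.467). The days did not overlap in either measure, but 2 against 2 libraries allow no smaller p. At the ESC-specific regions the difference was 1.18 percentage points without the day 6 library of batch EC-EA-3702. It was 4.22 without that of batch EC-DG-4040. KLF4 regions of both serum ESC libraries took 42.7% and 40.1% of the day 6 and 40.9% and 39.3% of the day 9 peaks, which overlapped (difference −1.34 percentage points, exact permutation test, p = 0.667).

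Chromosome X stood apart from the autosomes in the balance of the classes. It held 10 lost and 88 gained regions, so that 89.8% of the 98 were gained (Wilson 95% interval 82.2% to 94.4%, which covers counting error only). On the 19 autosomes the same share ran from 54.1% to 69.9%, with a median of 63.5%. Gained regions were 11.9% of the merged regions on X, above the autosomal range of 6.32% to 9.34%, and lost and common regions, at 1.35% and 21.3%, were below the autosomal ranges of 3.51% to 5.48% and 28.7% to 31.9%. Peaks on X made up 1.73% and 1.23% of the day 6 lists and 2.05% and 1.98% of the day 9 lists, so the day 6 library of batch EC-DG-4040 was the lowest. Without that library the share on X was 66.2%, against 50.6% on autosomes, and without the other day 6 library it was 76.3% against 44.6%. The sex of the cells is not given in the labels used here.

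**Figure D5:**
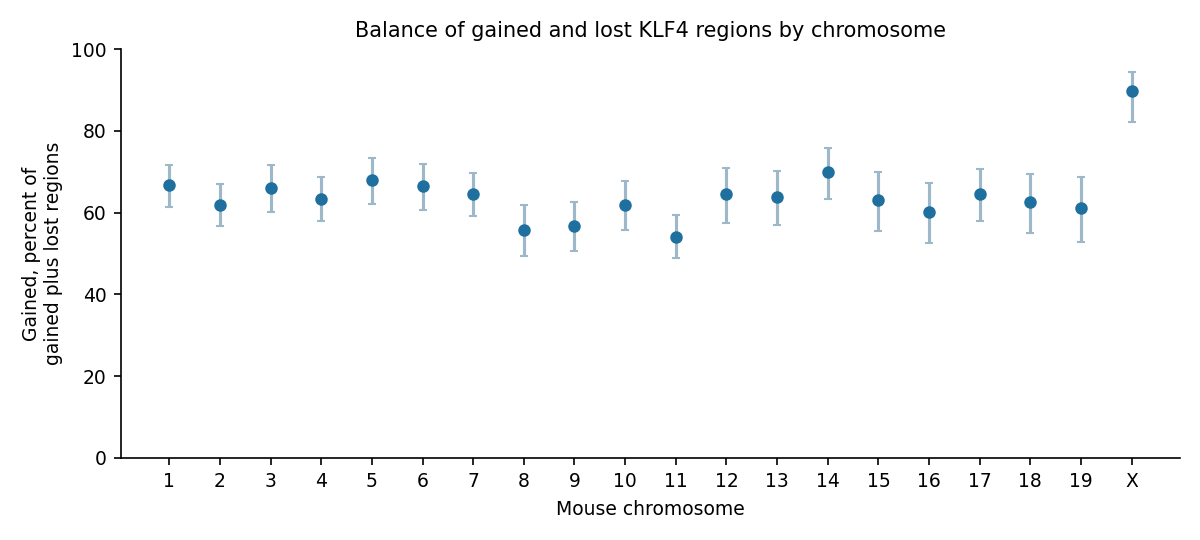
Gained regions as percent of gained plus lost KLF4 regions on each mouse chromosome, with Wilson 95% intervals that cover counting error only. Chromosome X, at 89.8%, lies above the highest autosome, at 69.9%.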

How the data were processed

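Peak lists of 22 ChIP-seq libraries, 1 per library and not pooled, were used as deposited; 13 input libraries were not analysed here. Per the submitters' processing notes, the build was mm10 and the tools named were cutadapt 1.8.1, Bowtie2 2.2.5, deepTools 2.3.6 and MACS2 2.1.1; settings and controls are not given in the sources used here. Each deposited peak carries the authors' score, its fold over background (a ratio), and 2 significance columns, the −log10 p-value and the −log10 q-value. These columns were used to rank peaks inside 1 list, to set limits and for description. Intervals overlapping by at least 1 bp were merged (Python 3.11.15, numpy 2.4.6, pandas 2.3.3), a region had a peak where any peak of a list overlapped it, and the code was checked on simulated lists. Gene starts came from a RefSeq promoter table (GRCm38.p6) for 79.9% of 21631 protein-coding genes; elsewhere either gene end was used. Each library gave 1 value to a two-sided exact permutation test (scipy 1.17.1), with Benjamini-Hochberg adjustment over 7 tests and a threshold of 0.05. Named regions were the 8 best-ranked per class at a gene, and up to 6 genes per list and direction by rank. Alternatives were the top 50% of each list, equal numbers of peaks, a deposited −log10 q of at least 2, peaks of 200 bp, an overlap of 50%, other gene windows and leaving out each library. The classes, lists and tests were chosen with earlier results of these data known. Some genes that the naming rule selects are not reported here; counts include them.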

Additional observations from a re-analysis of the deposited data

How the results depend on the processing

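The top 50% of each list gave 855 lost, 1558 gained and 5305 common regions, and a deposited −log10 q of at least 2 gave 7715 common ones. Without 1 KLF4 library, lost regions numbered 2395 to 5816, gained 4793 to 6519 and common 12443 to 14575, and the gained share of lost plus gained regions ran from 45.2% to 73.1%. With equal numbers of top peaks that share was 56.7%, and with the q limit 61.05%. The day 9 minus day 6 difference in the H3K27ac log2 ratio ran from −0.19 to 2.67, and that in peaks near gene starts from −14.35 to 2.59 percentage points, when 1 KLF4 library was left out. Both turned without the day 6 library of batch EC-EA-3702, and the cause was not tested. The difference in peaks at serum ESC KLF4 regions turned to 0.657 percentage points with equal numbers and to 0.0989 with the q limit. Listed genes with a lost or gained region numbered 56 and 70 with 50 kb windows, which take in more of the genome, and were 45 to 83 and 60 to 73 without 1 library. The H3K27ac slope stayed positive, at 0.14 to 0.62 per stage on the log2 scale, in every alternative run. With the replicate block (labels permuted within batch and title number) it was 0.43 (exact permutation test, p = 0.0396). Title numbers share only a number: deviations of same-numbered libraries correlated at −0.008 to 0.001. Lists without read counts limit every value here, since weak signal below a list's end is not seen.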
